A study of Homo sapiens with 4 samples.

Results

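The genes described here are 9 genes of bone morphogenetic protein (BMP) signalling, chosen by name: the ligand gene BMP4, the receptor genes BMPR1A, ACVR1 and BMPR2, the signal transducer genes SMAD1 and SMAD5, and the target genes ID1, ID2 and ID3. All 9 were present among the 11972 protein-coding genes of the deposited table. Expression had been measured by RNA sequencing in 143B, a human osteosarcoma cell line, in 2 groups of 2 libraries. Cells of the shFTO group stably carried a plasmid with a short hairpin RNA that knocks down FTO, an RNA demethylase of N6-methyladenosine, and cells of the shCtrl group carried a control plasmid, both grown in medium with puromycin. Values are FPKM, fragments scaled to transcript length and to the mapped fragments of the library, so levels of different genes can be set side by side per length. The sources used here say neither whether the stable cells were clones or pools nor whether replicate libraries were cultured apart, so the spread behind each p-value may be technical.

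BMP ligands bind a complex of type I and type II receptor kinases at the cell surface. The type II receptor phosphorylates the type I receptor, which phosphorylates SMAD1, SMAD5 and SMAD9, and these enter the nucleus with SMAD4 and switch on targets such as the ID genes. ID proteins have a helix-loop-helix but no DNA-binding region, and they hold E proteins away from DNA. BMPs are named for their ability to induce bone, and the pathway drives osteoblast differentiation.

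FTO itself had 0.268 and 0.242 FPKM in shFTO libraries, against 1.14 and 0.665 FPKM in shCtrl libraries. The groups did not overlap, which also held for 42.6% of the genes tested below. FTO was too low for the filter of 1 FPKM in 2 libraries, so it was not tested with them. A fit over all listed genes gave a log2(FPKM + 1) difference of -0.59 (limma adjusted p = 0.313). The values of the table summed to between 200555 and 212531 FPKM per library, and sequencing depth is unknown because FPKM carry no counts. Over all listed genes, log2(FPKM + 1) correlated at 0.964 between the shFTO libraries and at 0.983 between the shCtrl libraries. With the shCtrl libraries, the first shFTO library correlated at 0.967 and 0.973 and the second at 0.963 and 0.961. The first shFTO library was thus closer to the shCtrl libraries than to the second shFTO library. Of 7 mesenchymal markers 5 were listed, and their summed level was 433 and 473 FPKM in shFTO libraries, against 378 and 394 FPKM in shCtrl libraries, with the intermediate filament gene VIM at 253 to 329 FPKM. These markers did not move together: the matrix gene FN1 had 43.0 and 89.0 FPKM in shFTO libraries, against 12.3 and 9.20 FPKM in shCtrl libraries, and CD44 was also higher in both shFTO libraries, whereas SPARC had 67.4 and 61.3 FPKM in shFTO libraries, against 82.1 and 85.3 FPKM in shCtrl libraries, and COL1A1, at 0.643 to 2.07 FPKM, was lower in both shFTO libraries too. Osteoblast markers were low: RUNX2, ALPL and SPP1 together reached 5.35 to 8.95 FPKM with shFTO, against 5.70 to 7.54 FPKM with shCtrl, and SP7, BGLAP and IBSP were not among the listed genes. Of 4 epithelial markers, CDH1 and KRT19 were not listed. The keratin gene KRT18 had 128 and 110 FPKM in shFTO libraries, against 149 and 163 FPKM in shCtrl libraries. EPCAM had 4.36 and 2.43 FPKM in shFTO libraries, against 4.46 and 4.02 FPKM in shCtrl libraries, which overlapped. Of the leukocyte markers CD68 was listed, at 13.4 and 25.8 FPKM with shFTO, against 11.9 and 13.4 FPKM with shCtrl. PTPRC and CD3E were not listed, and no endothelial marker was. The part of these markers in the results below was not tested. In such bulk samples, fewer cells of a kind and less RNA per cell cannot be told apart.

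The 9 genes covered a wide range of levels. ID1 and ID3 lay far above the rest, followed by SMAD5, ACVR1, BMPR2, BMPR1A, SMAD1, ID2 and BMP4 in that order of the mean over the 4 libraries. ID1 (mean 83.3 FPKM) and ID3 (66.8 FPKM) overlapped in range, whereas ID3 was separated from SMAD5 (10.9 FPKM) in every library, by a ratio of means of 6.11. SMAD5, ACVR1 (7.92 FPKM) and BMPR2 (6.34 FPKM) overlapped with their neighbours. BMPR2 stood apart from BMPR1A (4.11 FPKM), and BMPR1A from SMAD1 (1.96 FPKM). At the low end SMAD1, ID2 (1.36 FPKM) and BMP4 (1.32 FPKM) overlapped with their neighbours.

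**Figure D1:**
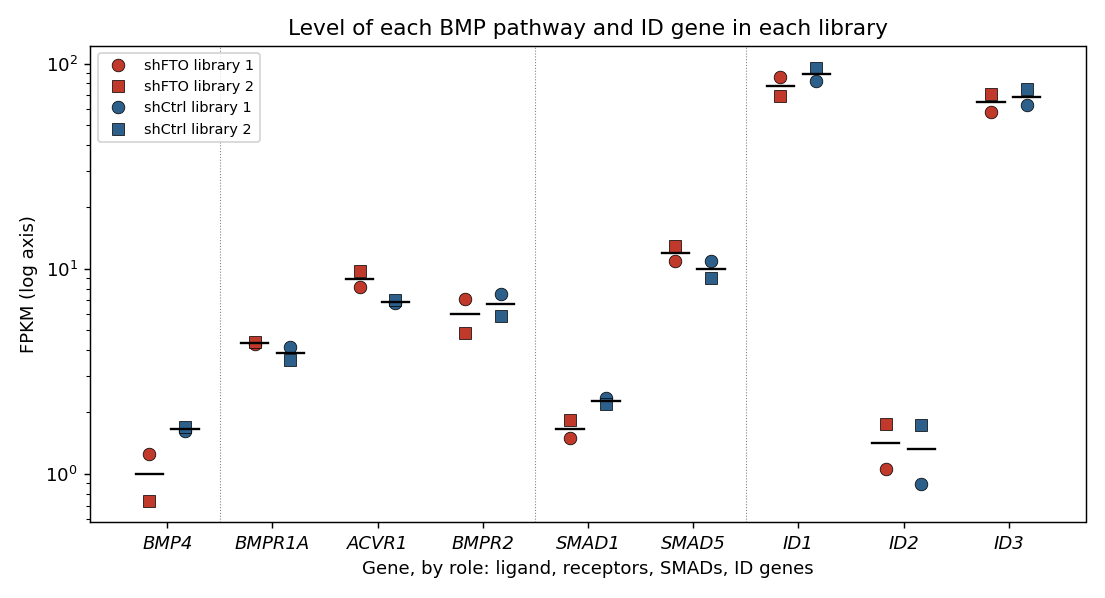
FPKM (log axis) of the 9 genes in each of the 4 libraries, with shFTO in red left of shCtrl in blue, circles for library 1, squares for library 2 and a bar at each group's mean. ID1 and ID3 sit above 58 FPKM in every library, while ID2 and BMP4 stay below 1.8 FPKM.

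The sequences around the start sites of the 3 ID genes are shown because these related genes stood at opposite ends of the range. Each run covers 250 bases before the annotated start to 50 after it, 5′ to 3′ on the gene's strand, from RefSeq on GRCh38.p14, in which the table held an entry for all 9 genes. The windows are chr20:31605039-31605338 on the plus strand for ID1, chr2:8681806-8682105 on the plus strand for ID2 and chr1:23559452-23559751 on the minus strand for ID3. Capitals mark matches, on either strand, to the GC-rich SMAD element GGCGCC, the SMAD-binding element GTCTG or the TATA box TATAAA.
ID1: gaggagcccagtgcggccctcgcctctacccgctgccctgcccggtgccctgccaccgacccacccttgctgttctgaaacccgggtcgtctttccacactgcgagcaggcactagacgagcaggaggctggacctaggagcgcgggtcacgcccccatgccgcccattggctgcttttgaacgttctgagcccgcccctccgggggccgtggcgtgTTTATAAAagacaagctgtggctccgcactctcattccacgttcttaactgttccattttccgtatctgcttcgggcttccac
ID2: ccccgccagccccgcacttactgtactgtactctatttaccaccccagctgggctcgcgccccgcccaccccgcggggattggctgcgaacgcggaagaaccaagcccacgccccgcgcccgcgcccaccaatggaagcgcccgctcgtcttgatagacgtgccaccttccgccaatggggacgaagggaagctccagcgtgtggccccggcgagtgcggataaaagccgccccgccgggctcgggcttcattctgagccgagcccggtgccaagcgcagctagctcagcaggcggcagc
ID3: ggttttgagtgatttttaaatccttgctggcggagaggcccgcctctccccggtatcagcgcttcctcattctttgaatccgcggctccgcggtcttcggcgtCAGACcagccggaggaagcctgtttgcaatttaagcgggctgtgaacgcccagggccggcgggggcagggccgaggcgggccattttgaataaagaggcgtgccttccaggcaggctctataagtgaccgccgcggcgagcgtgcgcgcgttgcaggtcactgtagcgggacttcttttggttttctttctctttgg
In ID1, TATAAA overlapped its own reverse complement, at bases -33 and -31 from the start, and in ID3 the 1 match was to the SMAD-binding element, at base -147. The ID2 window held no match to these letters. Among all 35116 RefSeq promoter windows of this length, 19.2% held GGCGCC, 45.3% GTCTG and 11.5% TATAAA. A match describes the letters alone, and the best known BMP response element of ID1 lies further upstream than this window.

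Between shFTO and shCtrl cells, the comparison asked whether the pathway's genes differed when FTO was knocked down. None of the 9 passed limma's test, which was run on log2(FPKM + 1) over the 10873 genes that reached 1 FPKM in 2 or more libraries and called a gene at a Benjamini-Hochberg adjusted p under 0.05. All 9 genes met the filter, and their limma adjusted p ran from 0.466 for BMP4 to 0.948 for ID2. Over all genes tested, 3 passed (0.0276%). Before adjustment 0 of the 9 had a limma p under 0.05, against 10.9% of all genes tested. The groups did not overlap for 4 of the 9, a share of 44.4% that is near the 42.6% of all genes tested. Both shFTO libraries were above both shCtrl libraries for ACVR1 and BMPR1A (24.6% of all genes tested) and below them for BMP4 and SMAD1 (18.1%). Their median difference was -0.09 on the log2(FPKM + 1) scale, beside 0.02 over all tested genes. Every 95% confidence interval held 0, and together the 9 intervals spanned -0.85 to 0.72 on this scale. With 2 libraries against 2, an exact two-sided permutation test of 1 gene cannot go below 0.333.

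**Figure D2:**
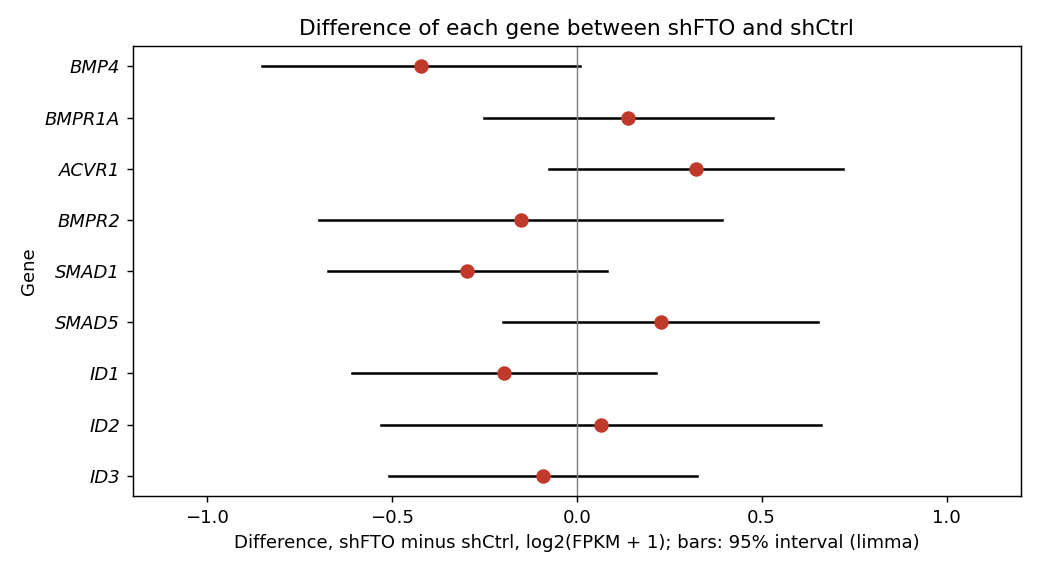
Difference of each gene, shFTO minus shCtrl, on the log2(FPKM + 1) scale, with its 95% confidence interval from limma. All 9 intervals cross 0, and the small positive value of ID2 turns negative with quantile normalization.

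BMP4, the ligand, is a secreted growth factor of the same subgroup as BMP2. The gene (chromosome 14, 54416454 to 54425479, minus strand, hg19) had 1.25 and 0.740 FPKM in shFTO libraries, against 1.62 and 1.68 FPKM in shCtrl libraries. The shFTO libraries both lay below the shCtrl libraries, and the shFTO pair was the more spread. The mean was 0.997 ± 0.364 FPKM with shFTO, against 1.65 ± 0.0489 FPKM with shCtrl (SD, n = 2 each), 39.5% lower. On the log2(FPKM + 1) scale, which understates changes of low genes, the difference was -0.42 (SE 0.17; 95% interval from -0.85 to 0.01, limma adjusted p = 0.466), and with a pseudocount of 0.1 it was -0.71 (limma adjusted p = 0.484). Leaving out shFTO replicate 1 gave -0.61, and leaving out shFTO replicate 2 gave -0.23.

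Among the receptors, ACVR1 is a type I receptor kinase also known as ALK2, in which activating mutations cause the ectopic bone of fibrodysplasia ossificans progressiva. ACVR1 (chromosome 2, 158592956 to 158732374, minus strand, hg19) had 8.16 and 9.69 FPKM in shFTO libraries, against 6.82 and 7.01 FPKM in shCtrl libraries. Both shFTO libraries were higher, by 29.1% in the mean, and the fitted log2(FPKM + 1) difference was 0.32 (SE 0.16, 95% interval from -0.07 to 0.72, limma adjusted p = 0.532), or 0.21 without shFTO replicate 2. BMPR1A, the type I receptor also called ALK3, lies on chromosome 10 (88516358 to 88692595, plus strand, hg19). Its levels were 4.29 and 4.41 FPKM in shFTO libraries, against 4.13 and 3.60 FPKM in shCtrl libraries. The groups did not overlap, but the gap between them was smaller than the spread of the shCtrl pair, and the log2 difference of 0.14 did not pass (limma adjusted p = 0.784). It was 0.06 without shCtrl replicate 2 and 0.22 without shCtrl replicate 1. GENCODE release 29 holds the processed pseudogenes BMPR1AP1 and BMPR1AP2, so reads of BMPR1A could be shared with near copies.

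BMPR2, the type II receptor whose loss-of-function mutations underlie heritable pulmonary arterial hypertension, lies on chromosome 2 (203241659 to 203432474, plus strand, hg19). It had 7.09 and 4.87 FPKM in shFTO libraries, against 7.50 and 5.90 FPKM in shCtrl libraries, so the groups overlapped and in each group the first library was the higher. The log2 difference was -0.15 (SE 0.22, limma adjusted p = 0.840) and 0.08 without shFTO replicate 2. Summed over these 3 receptors, the level was 19.5 and 19.0 FPKM in shFTO libraries, against 18.4 and 16.5 FPKM in shCtrl libraries. The shFTO sums were the higher ones, and the gap between the groups was smaller than that between the shCtrl libraries.

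SMAD1 and SMAD5 encode closely related transducers that are phosphorylated by the BMP type I receptors. SMAD1 (chromosome 4, 146402346 to 146479231, plus strand, hg19) had 1.49 and 1.83 FPKM in shFTO libraries, against 2.33 and 2.19 FPKM in shCtrl libraries. The shFTO pair lay below the shCtrl pair, by 26.5% in the mean, with a log2 difference of -0.30 (SE 0.15, 95% interval from -0.67 to 0.08, limma adjusted p = 0.548). SMAD5 (chromosome 5, 135468534 to 135524435, plus strand, hg19) had 10.9 and 12.9 FPKM in shFTO libraries, against 10.9 and 9.05 FPKM in shCtrl libraries. These groups overlapped, and the log2 difference was 0.23 (SE 0.17, limma adjusted p = 0.672), with a range from 0.10 without shCtrl replicate 2 to 0.35 without shCtrl replicate 1.

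SMAD5 was the more abundant of the pair in all 4 libraries. The ratio of SMAD5 to SMAD1 within a library was 7.29 and 7.02 in shFTO and 4.69 and 4.14 in shCtrl, a mean of 7.15 ± 0.186 in shFTO and 4.41 ± 0.391 in shCtrl (SD, n = 2 each). The groups were apart by more than the spread within either. This ratio was picked out after its values were seen, from 10 sums and ratios of which 3 had groups that did not overlap. Of single genes tested, 42.6% had groups that did not overlap, so such a gap is common in these libraries. Their summed level was 12.3 and 14.7 FPKM with shFTO, against 13.3 and 11.2 FPKM with shCtrl, which overlapped. Antisense genes lie on the opposite strand of SMAD1 (SMAD1-AS1, SMAD1-AS2), SMAD5 (SMAD5-AS1) and ID2 (ID2-AS1) in GENCODE release 29. No source used here says that counting used strand, so reads of these genes and their antisense partners may not have been told apart.

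**Figure D3:**
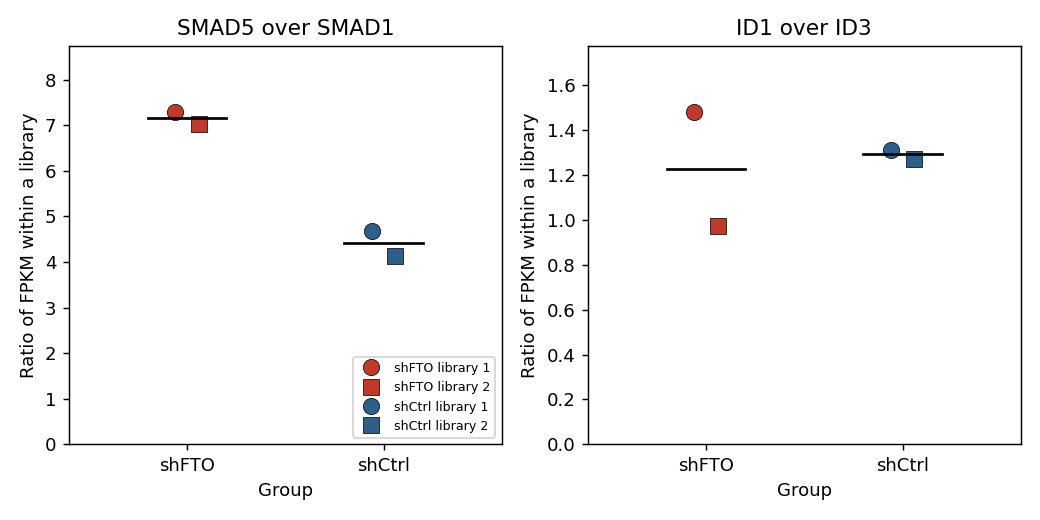
Ratio of FPKM within each library for SMAD5 over SMAD1 (left) and ID1 over ID3 (right), shFTO in red and shCtrl in blue, circles for library 1, squares for library 2 and bars at the group means. SMAD5 over SMAD1, picked out after its values were seen, was 7.29 and 7.02 in shFTO and 4.69 and 4.14 in shCtrl. For ID1 over ID3 the shCtrl values lie between the shFTO values.

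The ID genes are direct targets of the BMP SMADs. ID1 (chromosome 20, 30193086 to 30194318, plus strand, hg19) had 86.1 and 69.3 FPKM in shFTO libraries, against 82.2 and 95.6 FPKM in shCtrl libraries. These values overlapped, and ID1 stood above 97.1% of listed genes by its shFTO mean and above 97.4% by its shCtrl mean. The mean was 77.7 ± 11.8 FPKM with shFTO, against 88.9 ± 9.46 FPKM with shCtrl (SD, n = 2 each), with a log2 difference of -0.20 (SE 0.17, 95% interval from -0.61 to 0.21, limma adjusted p = 0.709). Leaving out the first shFTO library gave -0.35 for ID1, and leaving out the second gave -0.04.

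ID3 (chromosome 1, 23884409 to 23886285, minus strand, hg19) had 58.2 and 71.2 FPKM in shFTO libraries, against 62.7 and 75.1 FPKM in shCtrl libraries. The first library of each group was the lower, and the groups overlapped. Its log2 difference was -0.09 (SE 0.17, 95% interval from -0.51 to 0.33, limma adjusted p = 0.884). ID1 exceeded ID3 in 3 of the 4 libraries, with ratios of 1.48 and 0.974 in shFTO and 1.31 and 1.27 in shCtrl.

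ID2 (chromosome 2, 8818975 to 8824583, plus strand, hg19) was low, with 1.06 and 1.76 FPKM in shFTO libraries, against 0.894 and 1.73 FPKM in shCtrl libraries. In both groups the second library was the higher, by 0.42 in shFTO and 0.53 in shCtrl on the log2(FPKM + 1) scale, against a difference between the groups of 0.07 (SE 0.24, limma adjusted p = 0.948) that was -0.02 with quantile normalization. ID2 made up 0.729% and 1.23% of the summed ID1, ID2 and ID3 level in shFTO libraries and 0.613% and 1.01% in shCtrl libraries. That sum was 145 and 142 FPKM with shFTO, against 146 and 172 FPKM with shCtrl. The shFTO sums were the lower ones, but the first shCtrl library (145.8 FPKM) was almost level with the first shFTO library (145.3 FPKM).

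**Figure D4:**
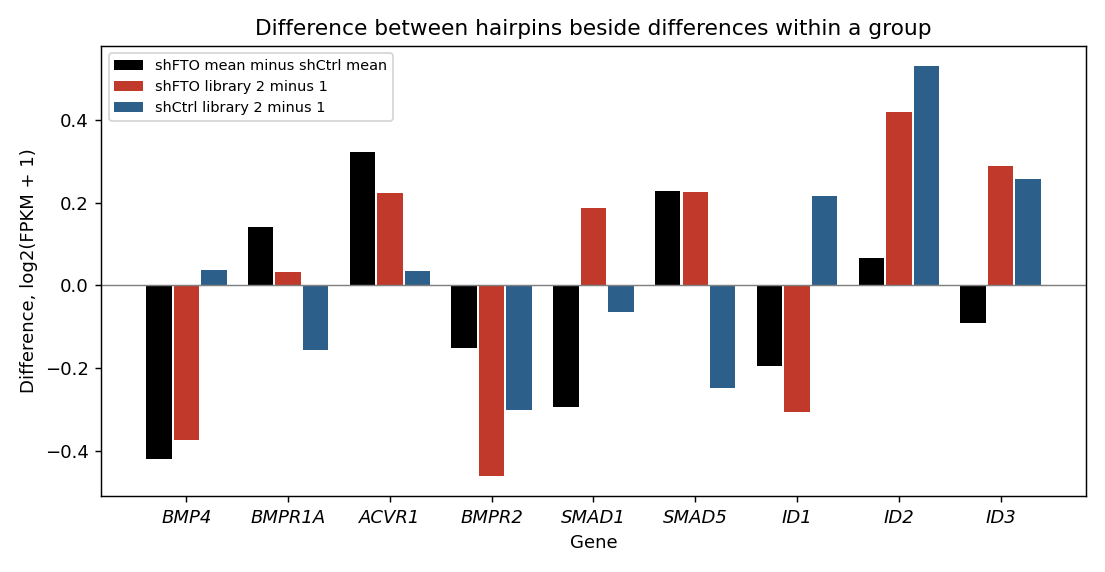
For each gene, the difference between the group means (black) beside the difference between library 2 and library 1 in shFTO (red) and in shCtrl (blue), all on the log2(FPKM + 1) scale. For 6 of the 9 genes the larger within-group difference exceeds the difference between the groups, with ID2 reaching 0.42 in shFTO and 0.53 in shCtrl. The share of all genes tested for which this holds was not computed.

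By the distance between their centred log2(FPKM + 1) profiles over the 4 libraries, the genes most like ID1 among 10822 candidates were QARS (0.011), UQCRFS1 (0.024) and TIMM50 (0.032). Those most like BMP4 were PFAS (0.030), BRSK1 (0.036) and SDC4 (0.046). With 4 libraries these distances describe the libraries only.

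The rest of the pathway was read from a list of 58 further genes: ligands, receptors, SMADs, feedback regulators, secreted antagonists, targets and the E proteins that ID proteins bind. Of these, 37 were listed and 32 tested. None passed in either direction in limma's test, with adjusted p of 0.154 or more, and 7 of 32 had an unadjusted p under 0.05, of which 6 were higher in shFTO (7.11% over all tested genes) and 1 lower (3.74%). Among the 6, TCF4 met the filter only through the shFTO libraries, where it was higher. Their median difference was 0.15 on the log2(FPKM + 1) scale, and between 0.07 and 0.23 on leaving out 1 library. The groups did not overlap for 13 of the 32 (40.6%), near the 42.6% of all genes tested, with shFTO above for 9 and below for 4.

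Of the other tested ligand genes, BMP2 and BMP6 differed in the opposite direction from BMP4 and BMP7 in the same one, and none passed. BMP2, an osteogenic ligand, had 4.36 and 10.6 FPKM in shFTO libraries, against 3.14 and 2.81 FPKM in shCtrl libraries, a log2 difference of 0.99 (SE 0.36, limma adjusted p = 0.425). BMP6 had 3.53 and 4.72 FPKM in shFTO libraries, against 2.68 and 2.45 FPKM in shCtrl libraries (log2 difference 0.52, limma adjusted p = 0.412). In both genes the shFTO libraries were the higher ones, and for BMP2 the second shFTO library stood far above the first. Set against both shCtrl libraries, the second shFTO library alone gave a BMP2 difference of 1.54, and the first alone gave 0.43. A lone library has no spread of its own, so these values are given without a test. BMP7 was the most abundant ligand by its mean in either group, at 11.6 and 9.16 FPKM in shFTO libraries, against 9.57 and 12.0 FPKM in shCtrl libraries, which overlapped (log2 difference -0.05, limma adjusted p = 0.952).

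ACVR2B, a type II receptor for activins and BMPs, had 3.29 and 3.12 FPKM in shFTO libraries, against 2.37 and 2.02 FPKM in shCtrl libraries (log2 difference 0.40, limma adjusted p = 0.456). The type I receptor gene BMPR1B was below the filter, at 0.310 and 0.232 FPKM in shFTO libraries, against 0.691 and 0.626 FPKM in shCtrl libraries. The shFTO libraries were lower for BMPR1B, but a fit over all listed genes gave -0.38 (limma adjusted p = 0.360). ENG, the co-receptor endoglin, had 9.97 and 8.99 FPKM in shFTO libraries, against 13.4 and 11.6 FPKM in shCtrl libraries and did not pass (log2 difference -0.36, limma adjusted p = 0.478).

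The highest and the lowest difference among the further BMP genes were both of secreted antagonists, FSTL1 and FSTL3. FSTL1, a secreted follistatin-like glycoprotein that binds BMP4, had 44.7 and 88.6 FPKM in shFTO libraries, against 15.9 and 13.4 FPKM in shCtrl libraries. Both shFTO libraries were higher, at a ratio of means of 4.55, and the log2 difference was 2.04 (SE 0.32, limma adjusted p = 0.154). Set against both shCtrl libraries, the second shFTO library alone gave 2.52 for FSTL1, and the first alone gave 1.55. In such fits the lone shFTO library takes its spread from the shCtrl pair, so these values are given without a test. With the first or the second shCtrl library left out, the FSTL1 difference was 2.15 or 1.92.

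NOG encodes noggin, which binds BMP4 and BMP2 and blocks their receptors. It had 3.79 and 3.32 FPKM in shFTO libraries, against 6.25 and 6.99 FPKM in shCtrl libraries. Noggin transcript was lower in both shFTO libraries, by 46.3% in the mean, with a log2 difference of -0.74 (SE 0.16, limma adjusted p = 0.253). BMPER, below the filter, had 0.0940 and 0.335 FPKM in shFTO libraries, against 0.823 and 0.625 FPKM in shCtrl libraries (-0.51 in the fit over all listed genes, limma adjusted p = 0.346). FSTL3, a follistatin-like inhibitor of activins, had 5.63 and 1.32 FPKM in shFTO libraries, against 5.76 and 8.63 FPKM in shCtrl libraries, and its difference of -1.04 did not pass (limma adjusted p = 0.515). GREM1, which encodes the antagonist gremlin, was spread in shFTO, at 6.08 and 32.5 FPKM, against 10.4 and 13.4 FPKM in shCtrl.

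Of 7 tested genes of feedback and turnover, SKIL, a co-repressor of SMADs, had 8.68 and 10.6 FPKM in shFTO libraries, against 5.93 and 4.28 FPKM in shCtrl libraries (log2 difference 0.81, SE 0.20, limma adjusted p = 0.288). The inhibitory SMAD genes SMAD6 and SMAD7, both induced by BMP signalling, overlapped between the groups. SMAD6 had 1.29 and 2.14 FPKM in shFTO libraries, against 1.29 and 1.31 FPKM in shCtrl libraries, and SMAD7 had 6.95 and 4.29 FPKM in shFTO libraries, against 3.78 and 4.38 FPKM in shCtrl libraries. The 9 tested target genes, ID1, ID2 and ID3 among them, had a median difference of -0.02, and 0 of them had an unadjusted limma p under 0.05, a count near the 10.9% of all genes tested. MSX1, a homeobox target, had 17.2 and 11.7 FPKM in shFTO libraries, against 8.98 and 11.1 FPKM in shCtrl libraries (log2 difference 0.47, limma adjusted p = 0.517).

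TCF4, here the E protein gene on chromosome 18 whose product ID proteins bind, had 2.22 and 3.11 FPKM in shFTO libraries, against 0.894 and 0.930 FPKM in shCtrl libraries. Both shFTO libraries were higher, at a ratio of means of 2.92, and the log2 difference was 0.93 (SE 0.17, limma adjusted p = 0.200). Only the shFTO libraries reached 1 FPKM, so TCF4 met the filter only through the group where it was higher. Set against the shCtrl pair, the second shFTO library alone gave a TCF4 difference of 1.10, and the first alone gave 0.75. The other E protein genes were more abundant: TCF3 had 13.7 and 14.0 FPKM in shFTO libraries, against 11.0 and 12.5 FPKM in shCtrl libraries, and TCF12 had 13.4 and 11.0 FPKM in shFTO libraries, against 12.4 and 5.88 FPKM in shCtrl libraries. Neither had an unadjusted limma p under 0.05.

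The branch of the superfamily that signals through TGF-beta and activin receptors is set beside the 9 genes by its counts. Of its 10 tested genes, 0 passed limma's test and 5 had an unadjusted p under 0.05, beside 0 of the 9 BMP and ID genes and 10.9% of all genes tested. Of the 5, 4 were higher in shFTO (7.11% of all genes tested) and 1 lower (3.74%). Both lists were chosen with earlier results of these data known, and the difference between them was not tested. With 9 genes a count of 0 is near that background of 10.9%. The 5 were TGFBR1, INHBA, TGFBR2 and SMAD3, with log2 differences of 1.59, 1.61, 0.76 and 0.48, and TGFB2 with -0.86. TGFB2 had 0.437 and 0.701 FPKM in shFTO libraries, against 2.17 and 1.52 FPKM in shCtrl libraries. It met the filter only through the shCtrl libraries, where it was higher. INHBA, an activin subunit gene, had 2.60 and 10.4 FPKM in shFTO libraries, against 1.16 and 1.02 FPKM in shCtrl libraries. Set against both shCtrl libraries, the first shFTO library alone gave an INHBA difference of 0.79, and the second alone gave 2.44. For the type I receptor gene TGFBR1 these values were 1.56 and 1.61, and for the type II receptor gene TGFBR2 0.48 and 1.05. A lone library has no spread of its own, so these values are given without a test. With the first or the second shCtrl library left out, the TGFBR1 difference was 1.68 or 1.49. For the receptor SMADs of that branch, SMAD3 had 19.8 and 23.2 FPKM in shFTO libraries, against 15.9 and 14.3 FPKM in shCtrl libraries (log2 difference 0.48, limma adjusted p = 0.374). SMAD2 had 2.49 and 2.07 FPKM in shFTO libraries, against 2.40 and 2.53 FPKM in shCtrl libraries and overlapped. SMAD4, the partner that both branches share, had 4.88 and 4.04 FPKM in shFTO libraries, against 4.31 and 2.52 FPKM in shCtrl libraries, which overlapped too.

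**Figure D5:**
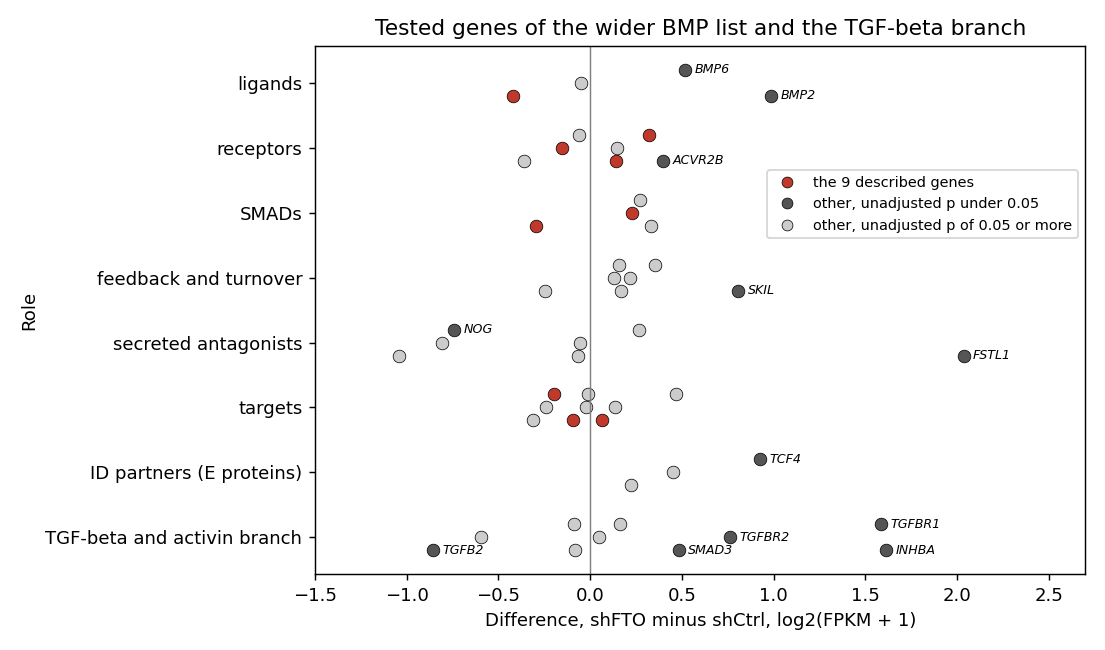
Difference of every tested gene of the wider list, shFTO minus shCtrl, on the log2(FPKM + 1) scale, by role, with the 9 described genes in red and other genes with an unadjusted limma p under 0.05 in dark grey and named. The red points lie between -0.42 and 0.32, while FSTL1 reaches 2.04 and none of the points passed after adjustment.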

How the data were processed

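Polyadenylated RNA was captured with oligo(dT), dUTP marked the second strand, and reads came from an Illumina HiSeq, as the labels' protocols state. Tools named without a role in the submitters' processing notes are STAR 2.5.2b, HISAT2 2.0.5, StringTie and cutadapt, with hg19 as the genome build. The authors deposited FPKM per library for 11972 protein-coding genes, per the file headers. Their group columns, headed FPKM, were means of log2(FPKM + 1), and the authors' log2 fold change is shFTO minus shCtrl of those means. In the authors' deposited table the p-value of the 9 genes ran from 0.0952 to 0.863 and the fold change from 0.748 to 1.25.

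Differences were computed with limma (3.58.1, under R 4.3.3) from log2(FPKM + 1), adding 1 before the log, with the trend option and without a block, tested on simulated data, and adjusted over all 10873 genes that reached 1 FPKM in 2 or more libraries. Genes below the filter were read from a fit over all listed genes. The members and lists were chosen with earlier results of these data known. Named were the 9 members, listed genes with an unadjusted p under 0.05, FTO and the 3 nearest profiles of ID1 and BMP4. Genes averaging 10 FPKM or more in a group could be named with their level. SMAD2, SMAD4, SMAD6 and SMAD7 were named for their role, and FSTL3 after its value was seen. No library pair held an identical value above 0. Depth is unknown, so no counting interval was computed. Alternatives covered the pseudocount, filter, scaling, variance trend, replicate block and leaving out each library. Gene overlaps came from GENCODE release 29 by name, with no coordinates taken from it.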

Additional observations from a re-analysis of the deposited data

How the results depend on the processing

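None of the 9 BMP and ID genes passed under any of the 11 alternatives (5 of them were tested where a mean of 5 FPKM was required), in which the smallest limma adjusted p was 0.0986, for BMP4 without shFTO replicate 1. Before adjustment, among alternatives that kept all 4 libraries, BMP4 had a limma p under 0.05 with quantile normalization and with median-ratio scaling. SMAD1 had one with quantile normalization. Over all genes tested, 1108 of 10873 had such a p with quantile normalization and 1178 of 10862 with median-ratio scaling. Without shFTO replicate 1 the log2 difference was -0.61 for BMP4 and 0.43 for ACVR1. The log2 difference changed sign for BMPR2 (0.079 without shFTO replicate 2), for ID3 (0.053 without shFTO replicate 1 and 0.037 without shCtrl replicate 2) and for ID2 (-0.024 after quantile normalization; -0.14 and -0.20 on leaving out shFTO replicate 2 or shCtrl replicate 1). These sign changes were 6 of 95 gene and setting pairs. When 1 library was left out, BMPR2 ran from -0.38 to 0.079, ID3 from -0.23 to 0.053 and ID2 from -0.20 to 0.33. The members' median ran from -0.20 to 0.05 when 1 library was left out.

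The number of genes passing over the whole table was 0 with a pseudocount of 0.1 (1167 at an unadjusted limma p under 0.05), and 1 with no filter, with median-ratio scaling and without the trend. It ran from 0 to 429 when 1 library was left out, against 3 in all. Among the further BMP genes 0 passed in each alternative that kept all 4 libraries. Over the 11 alternatives, those at an unadjusted limma p under 0.05 numbered 3 to 12. With the settings of the report they were 7 of 32, beside 1180 of all 10873 genes tested. The 3 came without shCtrl replicate 2 and the 12 without shFTO replicate 1. In these fits the count over all genes tested was also lower and higher, respectively, than with the settings of the report. When the filter was a mean of 5 FPKM or more, they were 4 of 18, beside 618 of all 6496 genes tested. The cause was not tested.

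With the replicate block 15 genes passed and the members' median stayed at -0.09, but nothing says that equal numbers pair the libraries, and their deviations correlated at -0.19 across genes. Leaving out 1 library leaves a lone sample that is assumed to vary like the other pair. Depth is unknown, which limits what can be said of BMP4, SMAD1 and ID2, all near 1 to 2 FPKM.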
